A study of Mus musculus with 98 samples.

Results

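Transcripts of the mouse zinc finger genes from Zfp600 to Zfp999 were followed through a culture model of the first embryonic cell types. Members were selected on measured values: the symbol lay between Zfp600 and Zfp999, was listed in all 9 count tables, and had at least 20 counts in each of the 4 libraries of untreated TBLC and diffTBLC (0 h) in the first actinomycin D course. That gave 149 of 173 such symbols, out of 21812 symbols in a table. Just inside the limit was Zfp781, with 38 and 42 counts in TBLC and 23 and 21 in diffTBLC, and Zfp989, with 145 and 136 in TBLC and 22 and 32 in diffTBLC. Just outside were Zfp711, with 69 and 82 in TBLC and 15 and 27 in diffTBLC, and Zfp677, with 54 and 51 in TBLC and 16 and 15 in diffTBLC. The rule asks for counts in both states, so genes silent in either were not taken, and no support is drawn from the levels in those 4 libraries.

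The starting cells were TBLC, totipotent blastomere-like cells, kept in 2MYCP medium. The differentiated groups were TBLC after 3 days in SLM medium (diffTBLC), TBLC after 8 h in SLM (labelled TBLC_PlaB-, beside TBLC_Ctrl), and cells sorted after 3 days in SLM into CD140-negative EPI-T and CD140-positive PrE-T. In diffTBLC, siRNA to Mettl3 or Virma, subunits of the enzyme complex that writes the RNA mark m6A, was set against siNC at steady state. Proteins Igf2bp3 and Ythdf2, both of which bind m6A-marked RNA, were immunoprecipitated with their RNA (RIP) from diffTBLC and set against input. Actinomycin D, which blocks transcription, was given for 0, 1, 2 or 3 h in 4 courses: TBLC and diffTBLC, TBLC_Ctrl and TBLC_PlaB-, diffTBLC with siNC1 or siVirma, and diffTBLC with siNC2 or siIgf2bp3. Each group had 2 replicates. The name PlaB- speaks of a loss of PlaB, which cannot be told apart from the change of medium. Strain and line of origin are not given in the sources used here, nor is it stated whether replicates were separate cultures. The p-values therefore speak of the spread among these libraries alone, and that may be technical.

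Most mammalian C2H2 zinc finger genes of this kind lie in tandem arrays and diverge quickly between species. Many of their proteins carry a KRAB domain, which recruits Trim28 and, through it, the histone methyltransferase Setdb1 and heterochromatin proteins, so that transposable elements bound by the fingers are silenced. Others in the same number range are unrelated in function: Zfp622 takes part in maturation of the large ribosomal subunit, Zfp830 belongs to spliceosomal complexes, and Zfp703 is a transcriptional corepressor.

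Counts per library ran from 20302848 to 29471283 in TBLC and sorted cells, from 3968442 to 4750020 in steady-state siRNA, from 5236928 to 12177033 in Igf2bp3 RIP, from 2483808 to 12666298 in Ythdf2 RIP and from 11433895 to 23145666 in the courses. Levels are CPM, counts scaled to a common library size, given for both replicates. Log2 changes are given ± their fitted standard error, and adjusted p-values are those of edgeR's quasi-likelihood test with Benjamini-Hochberg adjustment over all genes. Summed CPM of 9 primitive endoderm (PrE) markers was 194 and 191 in EPI-T, 1420 and 1380 in TBLC, and 16600 and 16500 in PrE-T, and that of 5 epiblast markers was 2440 and 2380, 1080 and 1080, and 598 and 596. Fibroblast markers summed to 37.4 and 40.5 CPM in EPI-T, 915 and 882 in TBLC, and 155 and 157 in PrE-T, and their part in the comparisons with TBLC was not tested. Of the targeted genes, Mettl3 measured 31.2 and 29.7 CPM with siNC and 26.4 and 27.5 with siMettl3, and Virma 122 and 115 with siNC and 87.1 and 81 with siVirma. In the courses Virma stood at 40.7 and 41.7 CPM with siNC1 and 34.7 and 33.6 with siVirma at 0 h. Igf2bp3 at 0 h was not lower but higher in the libraries labelled siIgf2bp3 (28.7 and 25.3 CPM) than in siNC2 (19.9 and 16.7), and lower from 1 to 3 h (23.2 to 27.7 against 32.2 to 44.7). The siNC1 and siNC2 libraries stood apart in another way: ribosomal protein transcripts summed to 166000 and 174000 CPM in siNC1 at 0 h and to 84000 to 138000 later, and to 152000 and 150000 in siNC2 at 0 h and 70100 to 111000 later. Ribosomal protein transcripts were highest at 3 h in the libraries labelled siIgf2bp3 (236000 and 249000 CPM, after 128000 and 135000 at 2 h). Counts of called slopes in these 2 courses are therefore given with and without 0 h, and those of the siIgf2bp3 course also without 3 h.

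In PrE-T the zinc finger transcripts were lower as a body than in EPI-T. Of the 149 genes, 71 were lower and 29 higher in PrE-T, while 49 did not pass the test; among all genes tested 32.8% were lower and 35.8% higher. The median log2 change was −0.42, with a range from −3.90 to 5.99, beside 0.03 over all genes. Their summed level was 3980 and 3906 CPM in EPI-T and 2586 and 2596 in PrE-T. In bulk samples, fewer cells of a type and less RNA per cell cannot be told apart. The 173 zinc finger genes with numbers below 600 gave a similar account, with 87 lower, 29 higher and a median of −0.39. Of the 28 genes listed as silencing partners of KRAB proteins, which include the KRAB protein Zfp57, 24 were lower and 3 higher, with a median of −0.64.

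**Figure D1:**
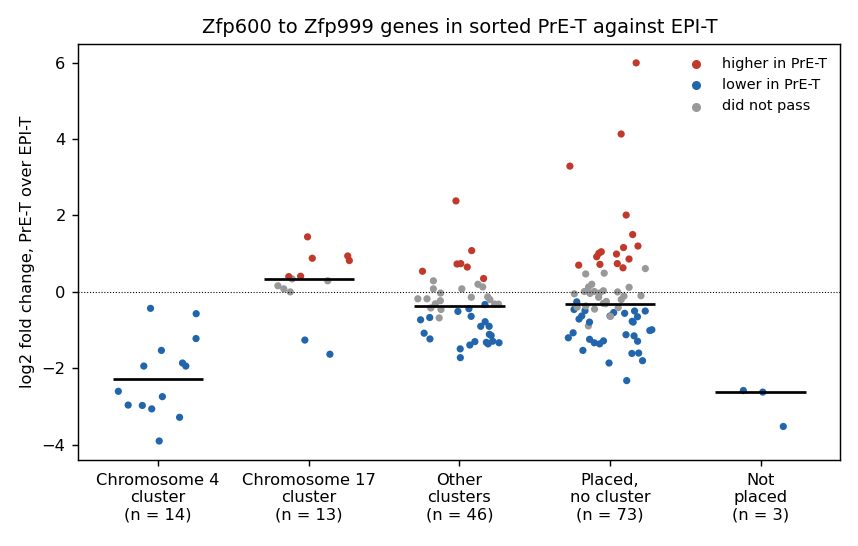
Log2 fold change of each of the 149 genes in PrE-T over EPI-T (vertical axis), by position in the genome (horizontal axis); points are genes, colours the edgeR call, and black bars medians. All 14 genes of the chromosome 4 cluster lie below 0, with a median of −2.27, while the chromosome 17 cluster has a median of 0.34.

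Members differed by position in the genome. By RefSeq gene order (GRCm38.p6), 146 members could be placed, on 17 chromosomes, and 73 of them fell into 14 clusters, where neighbours were separated by at most 3 other protein-coding genes; this rule was set after values had been seen. The 14 genes of one cluster on chromosome 4 (Zfp990, Zfp980, Zfp987, Zfp600, Zfp992, Zfp981, Zfp978, Zfp991, Zfp988, Zfp982, Zfp985, Zfp979, Zfp984 and Zfp933, in chromosome order) were all lower in PrE-T, with a median of −2.27 and a range from −3.90 to −0.43. Among the 73 placed genes outside any cluster, 31 were lower and 16 higher, with a median of −0.31. The 3 genes that could not be placed, Zfp989, Zfp997 and Zfp998, were lower too, from −3.52 to −2.58. Transcript sequences of the cluster genes were not compared, and how reads shared by similar genes were assigned is not stated. Values of single cluster genes are therefore taken as less certain than that of the group.

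Of the 8 lowest changes among all members, 6 belonged to this cluster (Zfp600, Zfp988, Zfp981, Zfp980, Zfp978 and Zfp985), and the others were Zfp997 and Zfp998. Zfp600 carried the largest fall: 43.4 and 45.3 CPM in EPI-T, 23.5 and 23.2 in TBLC, and 2.5 and 3.47 in PrE-T. Its log2 change from EPI-T to PrE-T was −3.90 ± 0.16 (adjusted p = 6.39e-13). Zfp978 measured 50 and 47.6 CPM in EPI-T, 33 and 31.7 in TBLC, and 6.23 and 6.32 in PrE-T, a change of −2.96 ± 0.12 (adjusted p = 9.53e-13). In both genes the 3 groups did not overlap, with EPI-T highest and PrE-T lowest. Zfp981 had the same order, at 64.5 and 60.7 CPM, 32.2 and 28.8, and 7.2 and 7.85. Zfp988 stood at 29.3 and 27.2 CPM in EPI-T, 17.8 and 21.3 in TBLC, and 3.36 and 2.44 in PrE-T. The fall was smaller at Zfp979, from 120 and 116 CPM in EPI-T to 51.9 and 49.7 in PrE-T (−1.22 ± 0.071, adjusted p = 8.15e-11). At the end of the array it was smallest: Zfp984 gave 48.1 and 44.3 CPM in EPI-T and 35.3 and 33.5 in PrE-T (−0.43 ± 0.10, adjusted p = 0.00157), and Zfp933 8.86 and 9.65 against 6.53 and 5.95 (−0.57 ± 0.19, adjusted p = 0.0134). Zfp933 was also the only gene of the 14 that was lower in EPI-T than in TBLC, where it measured 14.1 and 17.7 CPM. The sum of 6 markers of the 2-cell embryo had the cluster's order, at 236 and 242 CPM in EPI-T, 113 and 116 in TBLC, and 7.35 and 9.22 in PrE-T, where 1 and 2 of the 6 stood at 0; its part in these values was not tested.

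**Figure D2:**
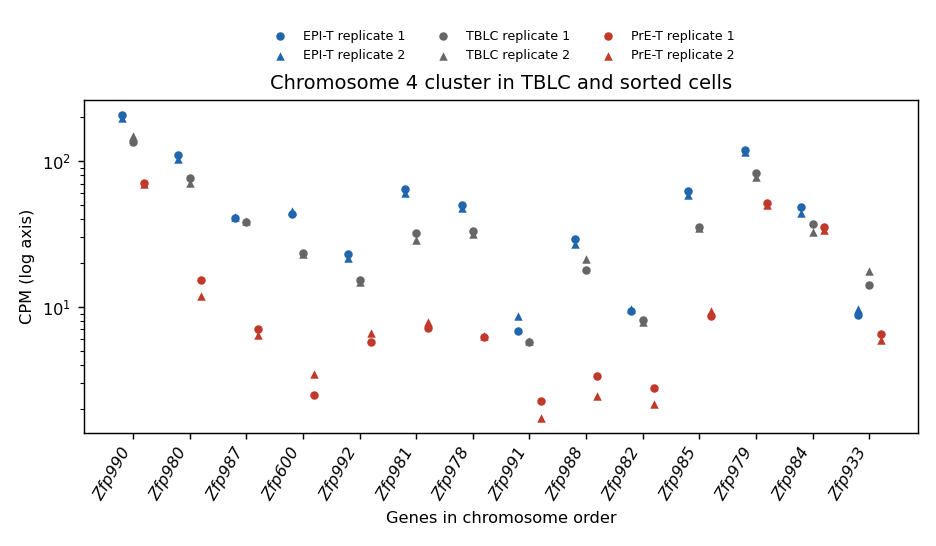
CPM on a log axis (vertical) of the 14 chromosome 4 cluster genes in chromosome order (horizontal) in EPI-T, TBLC and PrE-T; each point is a library and its shape the replicate. PrE-T libraries lie below the others in 13 of the 14 genes (Zfp984 overlaps TBLC), from 2.27 and 1.74 CPM at Zfp991 to 70.9 and 69.2 at Zfp990.

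The sequences before the start of these genes are shown because the genes moved together. RefSeq promoter windows (GRCm38.p6, 250 bases before to 50 after the start) were at hand for 125 members and for 10 of the 14 cluster genes. The 15 letters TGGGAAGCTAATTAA are the longest run held by 9 of the 10 genes, which is how they were chosen, and were then searched on both strands of all windows. They stood in none of the 140 windows of other members and in 12 of all 32851 windows (0.0365%). The remaining holders, Gm13212, Rex2 and Zfp534, are not members by their symbols, and clusters were built from members only. Whether they lie in the same chromosome 4 array was not examined. GGGCGG, the core of a GC box, stood in windows of 8 of the 10 genes. By window, it was in 9 of their 13 (69.2%), in 42.1% of those of other members and in 35.7% of all. The 170 bases before the start are given 5′ to 3′ for 4 holders and for Zfp933, with both motifs in capitals; the 2 motifs do not overlap in them.
Zfp600 (chr4:146156657-146156826, plus strand): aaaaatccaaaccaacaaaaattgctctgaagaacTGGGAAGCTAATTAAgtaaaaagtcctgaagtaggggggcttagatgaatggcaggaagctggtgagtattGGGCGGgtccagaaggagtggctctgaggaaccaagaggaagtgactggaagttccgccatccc
Zfp981 (chr4:146514750-146514919, plus strand): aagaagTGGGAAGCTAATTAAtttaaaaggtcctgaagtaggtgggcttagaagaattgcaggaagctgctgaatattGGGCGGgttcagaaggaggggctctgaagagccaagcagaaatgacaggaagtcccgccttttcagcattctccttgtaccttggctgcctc
Zfp988 (chr4:147305434-147305603, plus strand): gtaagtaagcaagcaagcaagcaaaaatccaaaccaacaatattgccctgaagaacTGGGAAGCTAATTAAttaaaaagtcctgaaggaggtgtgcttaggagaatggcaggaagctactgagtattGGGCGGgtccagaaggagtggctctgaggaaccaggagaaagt
Zfp979 (chr4:147642509-147642678, minus strand): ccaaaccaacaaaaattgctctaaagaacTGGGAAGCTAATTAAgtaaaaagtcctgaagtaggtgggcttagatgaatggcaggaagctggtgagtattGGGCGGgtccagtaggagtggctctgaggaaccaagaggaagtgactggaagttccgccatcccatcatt
Zfp933 (chr4:147848419-147848588, minus strand): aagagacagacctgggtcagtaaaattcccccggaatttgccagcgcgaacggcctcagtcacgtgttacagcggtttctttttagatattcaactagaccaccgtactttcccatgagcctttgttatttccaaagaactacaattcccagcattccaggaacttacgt

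Over these 170 bases the 36 pairs of the 9 holders differed by 14 to 88 single-base edits, with a median of 47. Zfp933, in which neither motif is capitalised, differed from them by 92 to 100. Zfp984, a holder of both motifs that is not printed, had the smallest fall of the cluster between EPI-T and PrE-T. It measured 48.1 and 44.3 CPM in EPI-T and 35.3 and 33.5 in PrE-T. A match describes these letters only, and their part in the levels was not tested.

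Of the 29 members higher in PrE-T, 16 were placed outside any cluster, as were 73 of all 149 members. Zfp703, the corepressor, was nearly absent from EPI-T at 0.082 and 0 CPM and stood at 9.11 and 8.16 in TBLC and 2.76 and 3.51 in PrE-T (adjusted p = 1.57e-07 for PrE-T over EPI-T). Its 159 counts in PrE-T against 2 in EPI-T make a ratio of 65.3, with an exact 95% interval from 17.8 to 544 that covers counting error only. Zfp697 had the same order, with 0.369 and 0.24 CPM in EPI-T, 15.3 and 13.2 in TBLC, and 5.74 and 5.21 in PrE-T. For both genes the difference is a low EPI-T level and not a peak in PrE-T, since TBLC was highest. Zfp608 did peak in PrE-T, at 32.5 and 28.7 CPM against 3.73 and 2.45 in EPI-T and 7.94 and 7.76 in TBLC (3.29 ± 0.19, adjusted p = 8.13e-11). Zfp622, the ribosome maturation factor, measured 96 and 111 CPM in PrE-T against 44.4 and 48.5 in EPI-T and 46.2 and 49.9 in TBLC (1.16 ± 0.087, adjusted p = 2.84e-09). Zfp768, Zfp651, Zfp628, Zfp947 and Zfp637 were higher in PrE-T by 2.38, 2.01, 1.5, 1.44 and 1.20 on the log2 scale. Among these, only Zfp768 stood above its TBLC level (7.76 and 6.57 CPM in PrE-T, 4.69 and 6.24 in TBLC). TBLC was above PrE-T at Zfp651 (10.8 and 10.5 CPM against 5.78 and 5.62) and Zfp628 (11.2 and 12.8 against 10.1 and 6.61). It was so at Zfp947 too (7.35 and 4.8 against 3.43 and 3.51). At Zfp637 TBLC and PrE-T overlapped (6.49 and 8.03 against 6.53 and 7.98). Apart from Zfp768, the difference is again a low EPI-T level.

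Other members with known roles were lower in PrE-T or did not pass. Zfp638, which silences unintegrated retroviral DNA, measured 245 and 247 CPM in EPI-T, 166 and 165 in TBLC, and 119 and 116 in PrE-T (−1.07 ± 0.055, adjusted p = 1.72e-11). Zfp706, linked to the exit of embryonic stem cells from self-renewal, measured 313 and 316 CPM in EPI-T, 210 and 218 in TBLC, and 203 and 230 in PrE-T. Zfp644, a partner of the methyltransferases Ehmt1 and Ehmt2, was lower in PrE-T than in EPI-T by 0.63 on the log2 scale. Zfp609, linked to the cohesin loader, was lower by 0.56, with 99.8 and 102 CPM in EPI-T, 65.1 and 70.7 in TBLC, and 67.9 and 68.4 in PrE-T. For Zfp706 and Zfp609 the difference is a high EPI-T level, since PrE-T and TBLC overlapped. Zfp809, which silences murine leukaemia proviruses, stood at 53.5 and 53.4 CPM in EPI-T and 47.2 and 49.6 in PrE-T (−0.14 ± 0.083, adjusted p = 0.132). Zfp830 and Zfp961 did not pass either, at 0.20 ± 0.10 (adjusted p = 0.0939) and −0.13 ± 0.086 (adjusted p = 0.185).

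Both sorted groups were also set against undifferentiated TBLC, whose libraries these comparisons share. Between PrE-T and TBLC, 90 of the 149 genes were lower and 9 higher (median −0.60; all genes 33.8% and 33.5%). Between EPI-T and TBLC, 45 were lower and 34 higher (median −0.07; all genes 34.8% and 30.1%). Without scaling beyond library totals these became 67 lower and 23 higher, and the median of all genes moved from −0.07 to −0.28. The chromosome 4 cluster went both ways: 13 of 14 genes were lower in PrE-T than in TBLC (median −1.82), and 10 of 14 higher in EPI-T than in TBLC, with 1 lower (median 0.54). Zfp600 rose by 0.93 ± 0.13 in EPI-T (adjusted p = 6.56e-06) and fell by 2.97 in PrE-T.

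A 13-gene cluster on chromosome 17, from Zfp948 to Zfp945, did otherwise. In it 11 genes were lower and 1 higher in PrE-T than in TBLC (median −0.81), and 10 were lower and 1 higher in EPI-T than in TBLC (median −1.06), so that 6 were higher and 2 lower when PrE-T was set against EPI-T (median 0.34). Its first gene, Zfp948, measured 18.7 and 22.9 CPM in TBLC, 29.7 and 30.7 in EPI-T and 51.2 and 55.3 in PrE-T, higher in both. Zfp945 at the other end did not pass in EPI-T against TBLC (0.05 ± 0.12, adjusted p = 0.725) and was lower in PrE-T (−1.58 ± 0.13, adjusted p = 1.39e-08).

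Among genes outside both clusters, Zfp750, known for its role in epidermal differentiation, measured 9.62 and 10.5 CPM in TBLC, 3.36 and 2.11 in EPI-T, and 0.634 and 0.455 in PrE-T. Zfp652 was higher in EPI-T (205 and 206 CPM) than in TBLC (97.1 and 92) or PrE-T (74.8 and 67.5). Zfp618, a partner of the 5-hydroxymethylcytosine reader Uhrf2, was highest in TBLC at 8.88 and 7.68 CPM, with 4.02 and 3.12 in EPI-T and 1.79 and 1.12 in PrE-T. Zfp651 was higher in TBLC (10.8 and 10.5 CPM) than in PrE-T (5.78 and 5.62) and lowest in EPI-T (1.39 and 1.44). The call for Zfp809 between EPI-T and TBLC (−0.21 ± 0.082, adjusted p = 0.0355) was lost with DESeq2 (adjusted p = 0.116).

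The silencing partners moved with the zinc finger genes in PrE-T against EPI-T and apart from them in EPI-T against TBLC. Trim28, the corepressor bound by the KRAB domain, differed by −0.48 ± 0.047 (adjusted p = 9.33e-08) between PrE-T and EPI-T, and Setdb1 by −0.52 ± 0.073 (adjusted p = 7.23e-06). Larger falls in the list were those of Zfp57 (−2.23 ± 0.051, adjusted p = 4.03e-16) and Hells, a chromatin remodeller needed for DNA methylation (−1.75 ± 0.055, adjusted p = 2e-14). Zfp57, which protects imprints, is itself a KRAB protein and not a partner of one in the sense of Trim28. The 3 partners higher in PrE-T were Suv39h1 (1.06), Mbd3 (0.66) and Pphln1 (0.37). In EPI-T against TBLC, 21 of the 28 were higher and 1 lower (median 0.63), and in PrE-T against TBLC 9 were higher and 12 lower.

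The unsorted diffTBLC culture was set against TBLC in the first course. At 0 h, where the libraries chose the members, the median log2 difference was −0.60, beside 0.02 over all genes, and 119 of 149 genes were below 0. This is a description. Of all genes 42.8% were called higher and 39.7% lower by the test, shares of calls that are not to be set against the 119, a count of signs. At 1 to 3 h, in libraries that the choice did not use, 111 were lower and 21 higher (median −0.70; all genes 45.7% and 43.8%). These libraries come from the same course and carry the drug as well. PrE markers summed to 356 to 427 CPM in TBLC and 3530 to 4890 in diffTBLC. Zfp978 measured 45.8 and 46.4 CPM at 1 h in TBLC and 8.65 and 7.97 in diffTBLC, and over 1 to 3 h it differed by −3.17 ± 0.053 (adjusted p = 2.06e-67). Zfp976 measured 14.1 and 14.7 CPM against 1.39 and 1.93 at 1 h (−4.05 ± 0.11 over 1 to 3 h, adjusted p = 1.06e-52). Of the chromosome 4 cluster, 13 of 14 were lower and 1 higher (median −1.0), and of the chromosome 17 cluster 12 of 13 lower and 1 higher (median −1.36). On the other side Zfp637 was higher by 1.34, Zfp688 by 1.29, Zfp608 by 1.26 and Zfp622 by 0.78.

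After actinomycin D the zinc finger transcripts fell faster than the centre of all transcripts in every arm. Slopes are in log2 per hour, relative to that centre since no spike-in is described, and in the first course they rest on 1 to 3 h. In TBLC 111 of 149 slopes were below 0 and 5 above (median −0.34; all genes 27.4% and 35.0%), and in diffTBLC 114 and 6 (median −0.34; 30.4% and 29.7%). In TBLC_Ctrl 132 were below and 2 above (median −0.41; 32.7% and 29.1%), and in TBLC_PlaB- 134 and 2 (median −0.43; 34.2% and 31.0%). In siVirma 117 were below and 1 above (median −0.38; 22.2% and 15.9%), and in the libraries labelled siIgf2bp3 122 and 3 (median −0.52; 26.6% and 27.0%). In the control arms 100 and 4 (siNC1, median −0.29; 21.8% and 23.2%) and 87 and 3 (siNC2, median −0.27; 22.8% and 21.8%) were called. Of the 149 genes, 62 were called below 0 in all 8 arms and 103 in at least 6, while 6 were so in none. Over 1 to 3 h alone, an alternative chosen after seeing the data, 97 slopes were below 0 and 1 above in siNC1 (median −0.40; all genes 18.7% and 21.2%), 98 and 0 in siVirma (median −0.38; 18.5% and 10.8%), 87 and 0 in siNC2 (median −0.39; 18.2% and 6.05%), and 110 and 5 in the libraries labelled siIgf2bp3 (median −0.45; 24.0% and 27.4%). Over those hours 59 genes were below 0 in all 8 arms, 92 in at least 6 and 11 in none. Without 3 h, 78 were below 0 and none above in the libraries labelled siIgf2bp3 (median −0.46; 8.05% and 1.32%), and 63 and 1 in siNC2 (median −0.32; 10.3% and 6.85%). The 4 courses are separate tables, but within a course both arms share a fit.

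**Figure D3:**
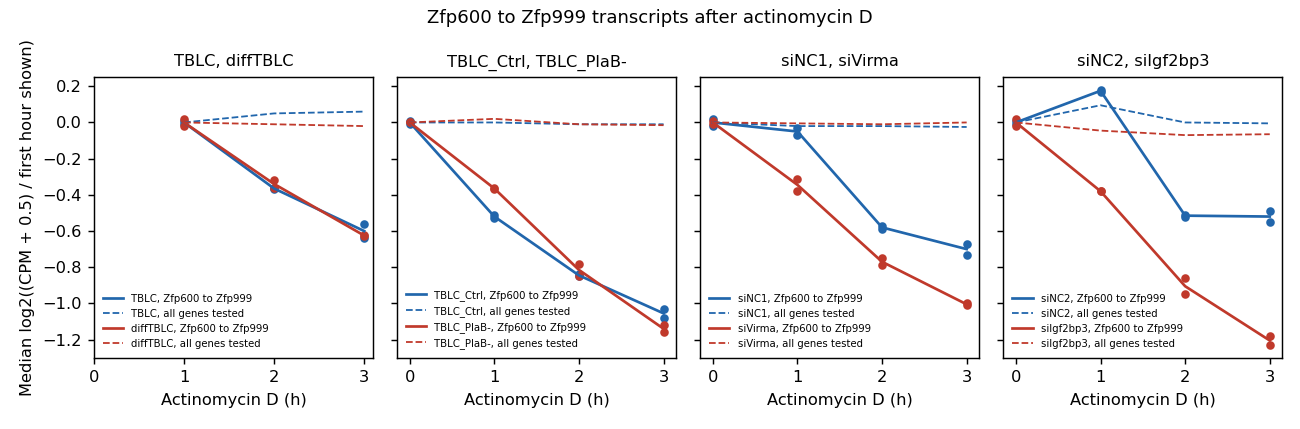
Median over genes of log2((CPM + 0.5) divided by the mean at the first hour shown) against hours of actinomycin D in the 4 courses, of which the first starts at 1 h because its 0 h libraries chose the members; solid lines and points (libraries) are the 149 zinc finger genes, dashed lines all genes tested. At 3 h the zinc finger medians lay at −0.56 and −0.64 in TBLC, relative to 1 h, and, relative to 0 h, at −1.03 and −1.08 in TBLC_Ctrl, and in siNC2 they stood above 0 at 1 h (0.18 and 0.17).

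The fastest members lost most of their transcripts within the course. Zfp819 measured 18.6 and 20.4 CPM at 0 h in TBLC_Ctrl, 6.89 and 5.70 at 1 h, 2.59 and 2.23 at 2 h, and 0.942 and 1.01 at 3 h, a slope of −1.49 ± 0.065 (adjusted p = 2.64e-16). Zfp748 went from 11 and 11.3 CPM over 3.81 and 3.46 and 1.59 and 1.73 to 0.942 and 1.36 (−1.24 ± 0.082, adjusted p = 1.06e-12). In both genes every time point lay below the one before it. Zfp830, the spliceosomal protein, fell in TBLC from 15.4 and 13.0 CPM at 1 h to 4.96 and 6.51 at 2 h and 2.74 and 2.91 at 3 h, and its slope was called below 0 in all 8 arms, from −1.19 to −0.69. Zfp703 fell by 0.74 ± 0.042 per hour in TBLC_Ctrl (adjusted p = 5.18e-14).

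A few members went the other way or fell less. Zfp692 rose in TBLC_Ctrl from 30.8 and 33.2 CPM to 42 and 42, 44.7 and 47.9, and 47.7 and 50.1 (0.20 ± 0.029, adjusted p = 1.43e-06), and its slope was above 0 in 6 of 8 arms; in TBLC it turned to −0.03 under library totals. The other members called above 0 in at least 3 arms were Zfp771, Zfp664 and Zfp946. Of these Zfp771 was also called below 0 in 2 arms and Zfp664 in 1. The highest slopes of Zfp664 (0.19 and 0.22) and Zfp946 (0.31 and 0.29) were those in siNC1 and siNC2. Zfp706 fell by 0.09 ± 0.015 and Zfp638 by 0.13 ± 0.019 per hour in TBLC_Ctrl, small beside the median. The chromosome 4 cluster was among the slower groups in TBLC, with 7 of 14 below 0, none above and a median of −0.12, while in TBLC_Ctrl 12 of 14 were below 0 (median −0.29). A 3-gene cluster on chromosome 7, Zfp658 to Zfp819, had a median of −1.08 in TBLC_Ctrl. Across the 149 genes, slopes in TBLC and TBLC_Ctrl had a Spearman correlation of 0.84, and across all 13846 genes one of 0.85; genes are not independent, and the arms share expression level and the drug.

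Slopes differed between diffTBLC and TBLC at 52 of the 149 genes: 23 were higher (a slower fall) and 29 lower in diffTBLC (median difference 0.02; all genes 14.7% and 17.9%). Zfp978 stayed between 38.2 and 46.4 CPM from 1 to 3 h in TBLC and went from 8.65 and 7.97 over 5.93 and 6.21 to 1.88 and 2.41 in diffTBLC, a difference of −0.71 ± 0.097 per hour (adjusted p = 4.15e-07). Zfp600 was level in TBLC at 19.6 to 20.9 CPM and fell in diffTBLC from 5.69 and 5.05 at 1 h to 1.74 and 2.94 at 3 h (−0.52 ± 0.10, adjusted p = 0.000117). Zfp976 gave −0.94 ± 0.19 (adjusted p = 0.000153). These 3 genes were low in diffTBLC and fell faster there. Zfp622 fell in TBLC from 54.5 and 54.5 CPM at 1 h to 28.8 and 28.1 at 3 h and in diffTBLC from 75 and 77.3 to 63.7 and 64 (0.33 ± 0.043, adjusted p = 1.53e-07). Zfp830 gave 0.37 ± 0.098 (adjusted p = 0.00322) and Zfp819 0.69 ± 0.18 (adjusted p = 0.00244). The call for Zfp989 (−0.65 ± 0.20, adjusted p = 0.00863) was lost without diffTBLC 3 h replicate 2 (adjusted p = 0.0558).

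Moving TBLC to SLM for 8 h changed few zinc finger transcripts. At 0 h no member was called by edgeR or DESeq2 (15 at an unadjusted p under 0.05; all genes 0.780% higher and 0.475% lower). Over 1 to 3 h, 11 were higher and 5 lower in TBLC_PlaB- (median 0.02; all genes 12.8% and 7.84%), and DESeq2 called 4. Zfp618 measured 2.18 and 2.18, 2.00 and 1.89, and 1.41 and 2.01 CPM in TBLC_Ctrl and 3.38 and 2.85, 2.83 and 2.44, and 2.7 and 2.08 in TBLC_PlaB- (0.45 ± 0.14, adjusted p = 0.0103), a call lost without TBLC_PlaB- 3 h replicate 1 (adjusted p = 0.0624). The count fell by more than 1.5 times, to 8, 9, 10 and 10, without TBLC_PlaB- 3 h, TBLC_Ctrl 1 h, TBLC_PlaB- 1 h and TBLC_PlaB- 2 h replicate 2 in turn. Slopes differed at no member by edgeR or DESeq2 (5 at an unadjusted p under 0.05; all genes 0.319% and 0.0922%). Over 1 to 3 h alone, 19 slopes were lower and 1 higher in TBLC_PlaB- (all genes 8.87% and 13.6%).

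With siRNA to the m6A writers few members were called at steady state, as were few of all genes. The targeted transcripts were only partly lower, with Mettl3 at 31.2 and 29.7 CPM with siNC and 26.4 and 27.5 with siMettl3. Virma measured 122 and 115 CPM with siNC and 87.1 and 81 with siVirma. What a deeper loss would do was not tested. With siMettl3 none of 147 tested was called by edgeR or DESeq2 (14 at an unadjusted p under 0.05; all genes 0.412% higher and 0.453% lower). With siVirma 6 were higher and 1 lower (4.08% and 0.68%, beside 3.48% and 3.63% of all genes), with a median of 0.07. DESeq2 called 1. Zfp609 measured 108 and 106 CPM with siNC, 130 and 122 with siMettl3, and 132 and 137 with siVirma (0.33 ± 0.078 for siVirma, adjusted p = 0.00126). Zfp704 was the lower gene, with 119 and 129 CPM against 96.7 and 102 (−0.32 ± 0.081, adjusted p = 0.00292; DESeq2 0.0821). Zfp647 had the largest change, from 2.35 and 5.47 CPM to 8.33 and 9.23 (1.16 ± 0.35, adjusted p = 0.0199), and lost its call without siNC replicate 1 (0.68, adjusted p = 0.419). Without any 1 of the 4 siNC and siVirma libraries, 2 or 3 calls were left. PrE markers summed to 6770 and 6910 CPM with siNC, 5830 and 5900 with siMettl3, and 4300 and 4310 with siVirma, and their part in these values was not tested.

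The siRNA courses carried far more differences, and these turned with time. At 0 h, 65 members were higher and 22 lower with siVirma than with siNC1 (median 0.20; all genes 33.1% and 27.2%; 87 and 9 by library totals, which moved the median of all genes from 0.05 to 0.24; 41 and 11 by DESeq2). From 1 to 3 h, 32 were higher and 57 lower (median −0.14; all genes 35.5% and 36.0%). In the libraries labelled siIgf2bp3, 93 were higher and 14 lower than siNC2 at 0 h (median 0.44 beside 0.14 over all genes; all genes 41.2% and 24.6%). From 1 to 3 h, 22 were higher and 76 lower there (median −0.21; all genes 32.9% and 37.1%; 9 and 91 by library totals). Summed zinc finger CPM in siNC2 went from 2778 and 2768 at 0 h to 3139 and 3152 at 1 h, 2192 and 2215 at 2 h, and 2243 and 2248 at 3 h.

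Single members showed the control libraries alternating with the hour. Zfp978 measured 1.33 and 2.39 CPM at 0 h, 9.32 and 9.26 at 1 h, 2.68 and 2.39 at 2 h, and 8.14 and 9.40 at 3 h in siNC1, and 1.14 and 0.904, 13.4 and 13.1, 4.00 and 4.29, and 13.1 and 13.1 in siNC2. With siVirma it went from 2.19 and 1.81 over 1.49 and 1.3 and 0.734 and 1.12 to 1.27 and 1.02. In both control arms it was low at 0 and 2 h and high at 1 and 3 h, with no overlap between these hours. Zfp600 repeated this in siNC2, with 1.25 and 1.99, 8.69 and 7.14, 3.80 and 3.79, and 8.25 and 8.90 CPM. PrE markers alternated as well, summing in siNC2 to 2040 and 2060, 3950 and 3880, 3010 and 2990, and 4250 and 4210 CPM, and in siNC1 to 2070 and 2000, 3150 and 3220, 2700 and 2710, and 3490 and 3540. With siVirma they stayed between 1110 and 1200, and in the libraries labelled siIgf2bp3 between 2300 and 2480. Whether these libraries differ in makeup or label was not tested.

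**Figure D4:**
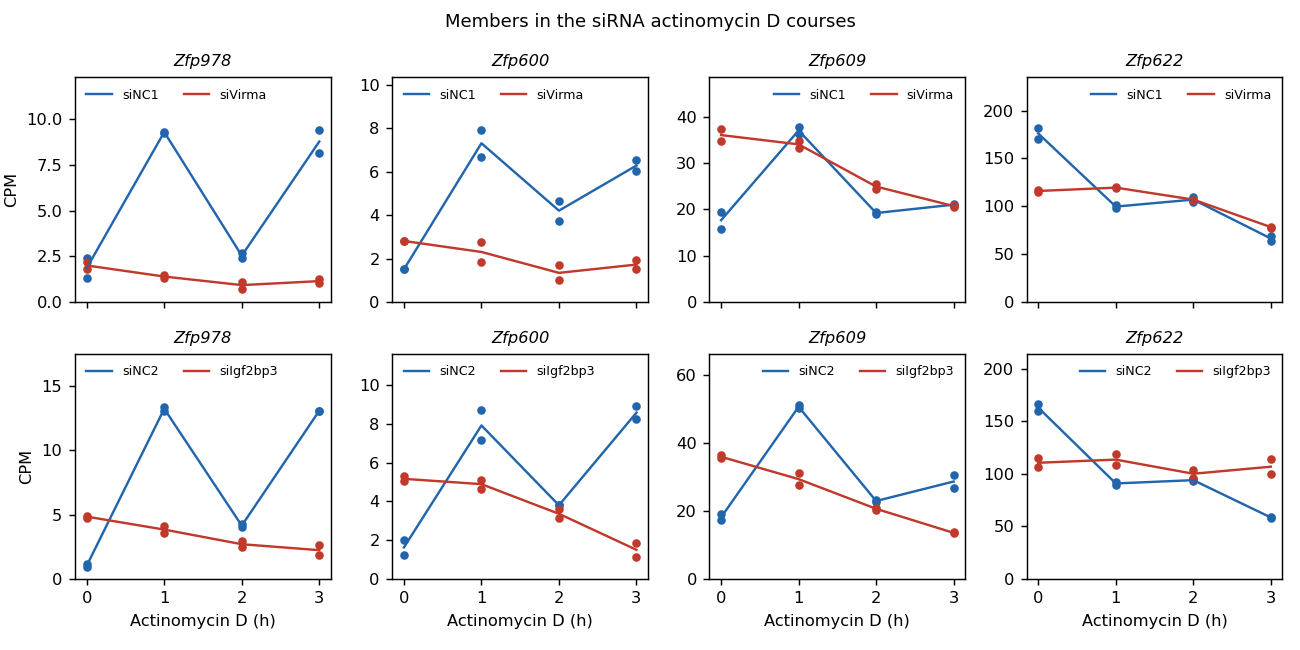
CPM (vertical axis) against hours of actinomycin D (horizontal axis) for Zfp978, Zfp600, Zfp609 and Zfp622 in the siNC1 and siVirma course (top) and the siNC2 and siIgf2bp3 course (bottom); points are libraries and lines means of 2. In siNC2, Zfp978 stood at 13.4 and 13.1 at 1 h between 1.14 and 0.904 at 0 h and 4.00 and 4.29 at 2 h, while the lines labelled siVirma have no such peak.

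The anchors Zfp609 and Zfp622 moved in opposite ways at 0 h. Zfp609 measured 19.5 and 15.8 CPM with siNC1 and 34.7 and 37.3 with siVirma (1.01 ± 0.077, adjusted p = 4.39e-13), and 17.2 and 19.1 with siNC2 and 36.4 and 35.6 in the libraries labelled siIgf2bp3 (0.99 ± 0.073, adjusted p = 7.29e-13). At 1 h it had reached 37.7 and 36.3 in siNC1 and 51.2 and 50.3 in siNC2, and from 1 to 3 h the libraries labelled siIgf2bp3 were lower than siNC2 by −0.67 ± 0.045 (adjusted p = 3.52e-14). Zfp622 measured 170 and 182 CPM with siNC1 and 117 and 115 with siVirma at 0 h (−0.60 ± 0.046, adjusted p = 3.81e-13), then 98.4 and 101 against 120 and 119 at 1 h. The change of sign between 0 h and later is seen in these values themselves.

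Slope differences between siRNA arms depended on which hours entered the fit. Between siVirma and siNC1, 1 was higher and 4 lower (median −0.10; all genes 2.91% and 6.02%; 45 at an unadjusted p under 0.05). DESeq2 called 24, 3 h against 0 h 77, the replicate block 1, and library totals, no filter and 1 to 3 h alone none, and leaving out 1 library gave from 0 calls (for example without siNC1 0 h replicate 1) to 45 (without siNC1 1 h replicate 1). The 5 were Zfp688, Zfp970, Zfp987, Zfp873 and Zfp961. Between the libraries labelled siIgf2bp3 and siNC2, 17 were higher and 57 lower (median −0.23; all genes 26.4% and 26.0%; 10 and 79 by library totals). None was called over 1 to 3 h or over 0 to 2 h.

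Ythdf2 immunoprecipitates held more of most zinc finger transcripts than input. Input held 2483808 and 2936270 counts and the precipitate 10905348 and 12666298. Ribosomal protein transcripts summed to 87100 and 87000 CPM in input and 22000 and 22200 in the precipitate, and their part was not tested. For neither protein is a control precipitate among the samples. Of 134 tested, 83 were higher and 15 lower (median 1.04 beside 0.02 over all genes; all genes 40.2% and 38.8%). The filter on counts left 15 members untested, and a low member could pass it through the precipitate alone. Without it all 149 could be fitted, with 87 higher and 14 lower (median 1.07 beside 0.16 over all genes; all genes 29.1% and 24.5%). The 170 tested zinc finger genes numbered below 600 gave 116 higher and 16 lower, with a median of 1.07, and the silencing partners 16 and 11. Zfp715 measured 12.2 and 12 CPM in input and 110 and 113 in the precipitate (3.20 ± 0.13, adjusted p = 1.55e-33). Zfp772 went from 4.06 and 3.44 to 31.4 and 30.7 (3.05 ± 0.24, adjusted p = 2.79e-19), and Zfp870 from 14.6 and 9.29 to 78.7 and 85.1 (2.80 ± 0.15, adjusted p = 9.54e-28). Input and precipitate did not overlap in any of the 3. Zfp644 rose from 13.8 and 14.8 to 63 and 67.8 CPM (2.19 ± 0.14, adjusted p = 9.41e-23). Lower were Zfp773, from 36.1 and 30.3 to 7.82 and 7.33 (−2.12 ± 0.17, adjusted p = 1.05e-18), and Zfp706, from 149 and 142 to 72.9 and 67.7 (−1.05 ± 0.079, adjusted p = 6.35e-20). The chromosome 4 cluster had no such shift, with 2 of 13 higher, 2 lower and a median of −0.02, while a 6-gene cluster on chromosome 17, Zfp871 to Zfp763, had all 6 higher (median 1.72) and the 69 tested genes outside clusters 49 higher and 7 lower (median 1.32).

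In Igf2bp3 precipitates the shares of members called lay near those of all genes. Of 148 tested, 45 were higher and 42 lower (median 0.03; all genes 35.0% and 34.8%). By library totals 28 were higher and 57 lower, with a median of −0.16 and the median of all genes moved from −0.01 to −0.21, and DESeq2 called 32 and 22. Zfp865 measured 11.8 and 13.9 CPM in input and 38.9 and 40.6 in the precipitate (1.63 ± 0.12, adjusted p = 4.4e-41), Zfp618 4.04 and 3.04 and then 11.7 and 11.6 (1.71 ± 0.23, adjusted p = 3.39e-13), and Zfp738 20.7 and 17.7 and then 54.3 and 57.4 (1.54 ± 0.10, adjusted p = 3.32e-52). Zfp609 was higher in both precipitations, here from 150 and 154 to 327 and 329 CPM (1.11 ± 0.043, adjusted p = 4.44e-145). Zfp688 went from 8.95 and 8.76 to 3.35 and 3.45 CPM and Zfp932 from 14.9 and 15.6 to 8.37 and 6.62, both lower. Input and precipitate did not overlap in any of these 6 genes. PrE markers differed between the sides of this experiment, at 6360 and 6250 CPM in input and 15200 and 15300 in the precipitate, and between the inputs, at 743 and 752 in the Ythdf2 input (791 and 784 in its precipitate), and their part was not tested.

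**Figure D5:**
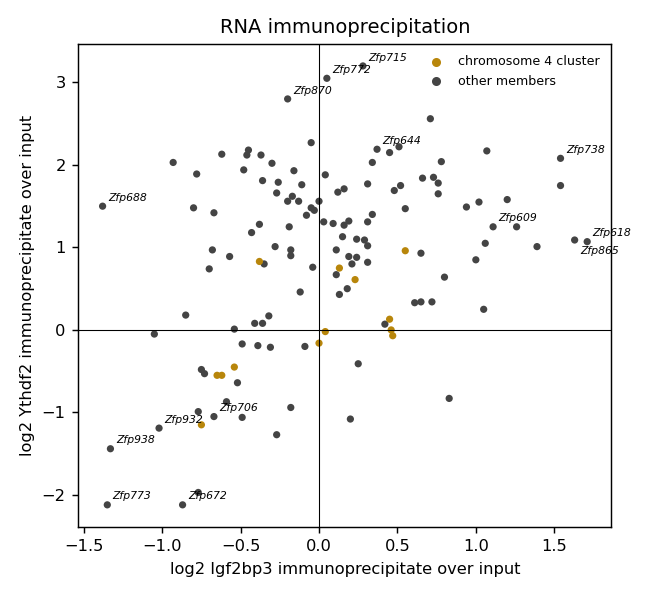
Log2 ratio of precipitate over input for Igf2bp3 (horizontal axis) and Ythdf2 (vertical axis); each point is a gene tested in both, with the chromosome 4 cluster in gold. Most points lie above 0 for Ythdf2 (median 1.04) and on both sides of 0 for Igf2bp3 (median 0.03).

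Across genes the readouts were related by rank, given as a description since genes are not independent and share depth and length. The slope in TBLC_Ctrl and the Ythdf2 ratio had a Spearman correlation of −0.40 over 134 members and −0.62 over all 12105 genes. The slope in TBLC_Ctrl and the Igf2bp3 ratio had one of −0.22 over 148 members and −0.31 over all genes, and both ratios one of 0.31 and 0.40. TBLC_Ctrl cells are undifferentiated, while both ratios come from diffTBLC. With the slope in diffTBLC the correlation was −0.39 over members and −0.62 over all genes for Ythdf2, and −0.27 and −0.45 for Igf2bp3.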

How the data were processed

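RNA was extracted with TRIzol and made into stranded libraries with either of 2 kits, per the labels' protocols. Of 98 samples in 49 groups of 2, 86 had gene counts, in 9 tables of 21812 symbols. The raw counts per gene were deposited by the authors; the submitters' processing notes name FastQC 0.12.1, Trim Galore, STAR 2.7.11b, Subread, DESeq2 and build mm39, with no order. The m6A peak lists, whose values are scores deposited by the authors, were not used here, since no mm39 annotation was at hand. Columns named TBLC_S were read as TBLC_PlaB-.

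Each table was scaled (TMM) and fitted whole with edgeR 4.0.16 under R 4.3.3 (filterByExpr, quasi-likelihood test, Benjamini-Hochberg over all genes, threshold 0.05), with every group of the table in the fit. Slopes over time are log2 per hour. In the first course slopes used 1 to 3 h, because the 0 h libraries chose the members. Alternatives were RLE scaling, library totals, DESeq2 1.42.0, a replicate block, no filter, single time contrasts, each library left out and, chosen after seeing the data, slopes over 1 to 3 h in the other courses and over 0 to 2 h in the siIgf2bp3 course.

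Replicate numbers were not taken to pair samples: correlations of deviations between same-numbered libraries ran from −0.06 to 0.15, and only 3 of 28 pairs of groups in the siVirma course and 4 of 28 in the siIgf2bp3 course were over 0.1. No replicate pair of 43 was identical. Members and lists were chosen with earlier results of these data known. Genes were named by rule: 12 genes chosen beforehand that were members, the 8 highest and 8 lowest called genes without overlap between PrE-T and EPI-T, 4 and 4 elsewhere, and symbols next to the count limit; cluster ends and partners were named besides. Promoters come from RefSeq (GRCm38.p6), at hand for 125 members; no class by protein domain was made.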

Additional observations from a re-analysis of the deposited data

Results flagged for a closer look

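Slopes after actinomycin D that differed between arms are given in log2 per hour, each past edgeR's threshold in the test of the difference itself. For diffTBLC minus TBLC they were 0.69 at Zfp819, 0.55 at Zfp954, 0.52 at Zfp988, 0.49 at Zfp628, 0.37 at Zfp830, 0.33 at Zfp622, 0.23 at Zfp932, 0.10 at Zfp706, −0.20 at Zfp609, −0.52 at Zfp600, −0.65 at Zfp989, −0.71 at Zfp978 and −0.94 at Zfp976. For siVirma minus siNC1 they were 0.46 at Zfp688, −0.27 at Zfp961, −0.30 at Zfp873, −0.41 at Zfp987 and −0.88 at Zfp970. For the libraries labelled siIgf2bp3 minus siNC2 they were 0.68 at Zfp771, 0.65 at Zfp707, 0.62 at Zfp992, 0.61 at Zfp688, 0.41 at Zfp622, 0.13 at Zfp706, −0.32 at Zfp961, −0.73 at Zfp608, −0.98 at Zfp978, −1.01 at Zfp600, −1.28 at Zfp997 and −1.33 at Zfp976. None of the differences between siRNA arms passed over 1 to 3 h alone, and none of those in the siIgf2bp3 course over 0 to 2 h.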

How the results depend on the processing

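Counts of called members stayed within 1.5 times under RLE scaling in all 26 comparisons, and in 21 of 26 with DESeq2, 25 with library totals, 24 without the filter on low counts and 23 with the replicate block. DESeq2 called 1 with siVirma at steady state, 54 in Igf2bp3 RIP, 4 in TBLC_PlaB- at 1 to 3 h, 52 in siVirma against siNC1 at 0 h and 24 in the siVirma minus siNC1 slope. The replicate block gave 1 call each with siMettl3, in TBLC_PlaB- at 0 h and in the siVirma minus siNC1 slope. Without the filter TBLC_PlaB- at 0 h had 1 call and the siVirma slope 0, and library totals gave 0 there. Comparing 3 h with 0 h gave 2 calls in the TBLC_PlaB- minus TBLC_Ctrl slope and 77 in the siVirma slope; slopes over 1 to 3 h gave 20, 0 and, for siIgf2bp3 minus siNC2, 0. Slopes over 0 to 2 h, chosen after seeing the data, gave 78 calls in siIgf2bp3 and 0 in siIgf2bp3 minus siNC2. The causes were not tested. Leaving out 1 library gave 2 to 3 calls with siVirma at steady state, 0 to 2 with siMettl3, 0 to 1 in TBLC_PlaB- at 0 h, 8 to 16 at 1 to 3 h and 0 to 45 in the siVirma slope; PrE-T against EPI-T gave 83 to 92. Of 341 named gene and comparison pairs, 77 lost their call under at least 1 setting. Under library totals 6 changed sign: Zfp622 (−0.06) and Zfp638 (−0.05) in Igf2bp3 RIP, the slopes of Zfp692 in TBLC (−0.03) and Zfp706 in diffTBLC (−0.07), Zfp706 in siVirma against siNC1 at 0 h (0.02) and Zfp932 in siIgf2bp3 against siNC2 at 1 to 3 h (−0.03). Steady-state siRNA libraries, with the fewest counts apart from those of Ythdf2 RIP, limit what could be seen for low members.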

Other observations

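The 2 libraries labelled TBLC2 have no comparison group, and their values are given as such. They held 5036913 and 5238475 counts, and the 149 zinc finger genes summed to 4910 and 4860 CPM. Zfp600 measured 55.2 and 51.8 CPM, Zfp978 86.2 and 76.5, Zfp706 251 and 258, Zfp638 174 and 177, and Zfp703 33.2 and 27.5. PrE markers summed to 2430 and 2390 CPM and fibroblast markers to 1610 and 1540.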
